A study of Mus musculus with 8 samples.

Results

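The comparison described here is the response of Lgr5-positive basal cell carcinoma cells to vismodegib, a drug that inhibits Smoothened. It takes the 4 arrays labelled Lgr5+Lrig1+, from 2 vismodegib-treated and 2 untreated mice, out of the 8 arrays of the series, and 1 probe set (the brightest) for each of 17097 genes. All mice, the untreated ones included, were K14-CreER/Ptch1cKO. In them an inducible Cre recombinase under the keratin 14 promoter deletes Ptch1, so the deletion can fall in any keratin 14-expressing keratinocyte of epidermis or follicle. Tumour-bearing back skin was parted into epidermis and dermis, and living single cells were sorted by the endogenous Lgr5-GFP reporter and by surface Lrig1. Each array holds cells of 1 mouse, and no age, drug dose or treatment time is given in the labels. The other 4 arrays hold the Lgr5-negative Lrig1-positive cells of the same 4 mice. They share in the estimate of the spread and serve as a comparison at the end. By its title, the study asked about tumour relapse after treatment.

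Ptch1 is the Hedgehog receptor that holds Smoothened in check, and its loss leaves the pathway active and gives rise to basal cell carcinoma. Active Smoothened releases Gli transcription factors, which drive follicle-like progenitor programmes in the tumour. Lgr5, a receptor for R-spondins, marks cycling and resting stem cells of the lower hair follicle, whereas Lrig1 marks progenitors of the upper follicle. The upper follicle and the epidermis between follicles form a barrier of keratins, cross-linked envelope proteins and lipids.

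The labels were first checked against the markers. Lgr5 stood at 10.976 and 11.001 (log2 signal) in the untreated arrays and at 9.44 and 10.03 after vismodegib. It was lower in both treated arrays (log2 fold change −1.25 ± 0.25, limma SE), did not pass without vismodegib array 1 or either untreated array, and was still above the median of each array, which lay between 6.13 and 6.20. These Lgr5 levels were not set against those of the Lgr5-negative arrays, so they do not check the sort on Lgr5. Ptch1, the deleted gene and itself a Hedgehog target, went from 11.91 and 11.38 to 8.25 and 8.78. All arrays carry the deletion and the labels do not say which exons it removes, so its probe sets check nothing about it. Gli1, the transcription factor that reports pathway activity, went from 9.73 and 10.13 to 6.42 and 6.39 (−3.52 ± 0.17), which follows the treatment label in every array. Krt5 and Krt14, the keratin pair of basal keratinocytes, ranged from 12.23 to 12.92 in the 4 arrays. The keratinocyte markers had 1 higher and 0 lower members of 11 tested. Macrophage, dendritic and Langerhans cell markers had 20 higher and 0 lower of 23 tested. Their mean level, over the 24 on the array, went from 5.94 and 5.63 in untreated to 8.50 and 8.16 in treated arrays, and the pan-leukocyte marker Ptprc from 4.70 and 4.33 to 7.74 and 6.86. Of the 24, only Itgam stayed too dim to be tested. The other marker lists, for T cells, mast cells and neutrophils, fibroblasts, endothelium, melanocytes, Merkel cells, sebocytes, sweat gland, muscle, fat and nerve, and red blood cells and platelets, had at most 1 higher and 1 lower member each. In sorted bulk cells, fewer cells of a type and less RNA per cell cannot be told apart. The part of the macrophage signal in the results below was not tested. Some genes also known from macrophages are named as such, but a gene without that remark was not shown to be free of this signal.

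Vismodegib changed 1566 of the 14403 genes bright enough to test, at an adjusted p under 0.05 by limma with Benjamini-Hochberg adjustment over all of them. Of these, 917 (6.37%) were higher and 649 (4.51%) lower, against a median log2 fold change of −0.01 over all tested genes. Non-overlapping arrays alone are a weak criterion here, since 54.8% of all tested genes have them. All 1566 called genes have them, so where arrays of a called gene are said to lie apart, this adds nothing to the call. The median change of the called genes was 0.94 for the higher and −1.01 for the lower ones. At least 2-fold changes were seen for 411 higher and 328 lower genes, and at least 8-fold changes for 32 and 23. Of the called genes, 25 of the higher were dim in both untreated arrays and 28 of the lower were dim in both treated arrays. The 2 arrays of a group differed by a median of 0.183 (untreated) and 0.132 (vismodegib) on the log2 scale. With n = 2 mice a group, single arrays carry weight. Without vismodegib array 1 the count was 543, without vismodegib array 2 it was 768, and without untreated array 2 it was 1037 (limma, all other settings kept). Arrays are numbered by mouse as in the labels, and mice with the same number in different treatments are different animals.

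**Figure D1:**
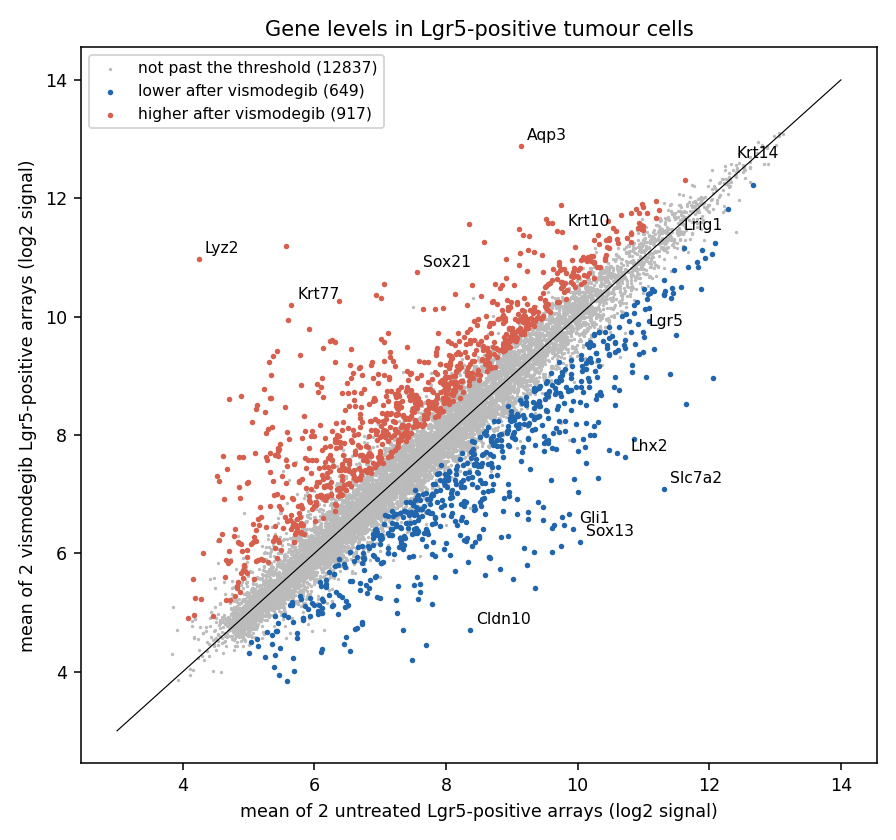
Mean log2 signal of the 2 untreated (horizontal) and the 2 vismodegib (vertical) Lgr5-positive arrays for each of the 14403 tested genes, with the line of equality. Red points are the 917 genes higher and blue points the 649 genes lower after vismodegib; Krt14 and Lrig1 lie near the line, while Aqp3, Sox21 and Krt77 lie above and Slc7a2, Sox13 and Cldn10 below it.

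Slc7a2, a cationic amino acid carrier, had the largest decrease of the genes tested. It stood at 11.41 and 11.22 in untreated and at 7.31 and 6.86 in treated arrays. The groups were far apart, an 18.8-fold decrease (−4.23 ± 0.28, adjusted p = 0.000303 by limma). Sox13, Cldn10 and Col27a1, described with their lists below, came next outside the Hedgehog pathway. The pseudokinase Trib2 (−3.32 ± 0.11), the ciliary neurotrophic factor receptor Cntfr (−3.21 ± 0.13), cochlin (Coch, −3.17 ± 0.20) and the thyroid hormone activating deiodinase Dio2 (−3.60 ± 0.21) fell as well. Scnn1b, a subunit of the epithelial sodium channel, fell from 9.12 and 9.34 to 5.83 and 5.76 (−3.43 ± 0.16). Scnn1g, the neighbouring gene for another subunit of that channel, fell with it (−1.89 ± 0.20). Scnn1g was named after its values were seen. Of the 25 largest increases, 7 were macrophage markers of the list above, and others were in epithelial or further genes. That list does not hold every gene of such cells, so the count of 7 may be too low. The myeloid chemokines Ccl9 (3.54) and Ccl6 (3.37), described below, are not on it. Slc16a14, of the monocarboxylate carrier family, rose from 5.04 and 5.58 to 9.23 and 9.21 (3.91 ± 0.23). The transcription factor Sox7 rose from 6.28 and 6.27 to 9.50 and 9.70 (3.33 ± 0.15). Rgs4, a regulator of G proteins (3.56 ± 0.42), the prostaglandin D synthase Hpgds (3.88 ± 0.18) and the chloride channel regulators Clca3a1 (3.77 ± 0.29) and Clca3a2 (3.49 ± 0.50) rose too. Clca3a1 and Clca3a2 are close copies read by probe sets that can bind related transcripts, so their separate values are less certain. As the mean of their probe sets, Dio2 (−2.95), Sox7 (2.49) and Clca3a1 (2.94) passed with smaller changes.

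A set of 48 gene lists, chosen for processes of skin and tumour, held 1306 of the tested genes and 326 of the called ones. Their counts are read against the 6.37% higher and 4.51% lower of all genes. Leaving out 1 Lgr5-positive array turned the sign of the median of 13 of the 48 lists, each with a median of at most 0.17 in size, so medians of that size have no settled direction.

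**Figure D2:**
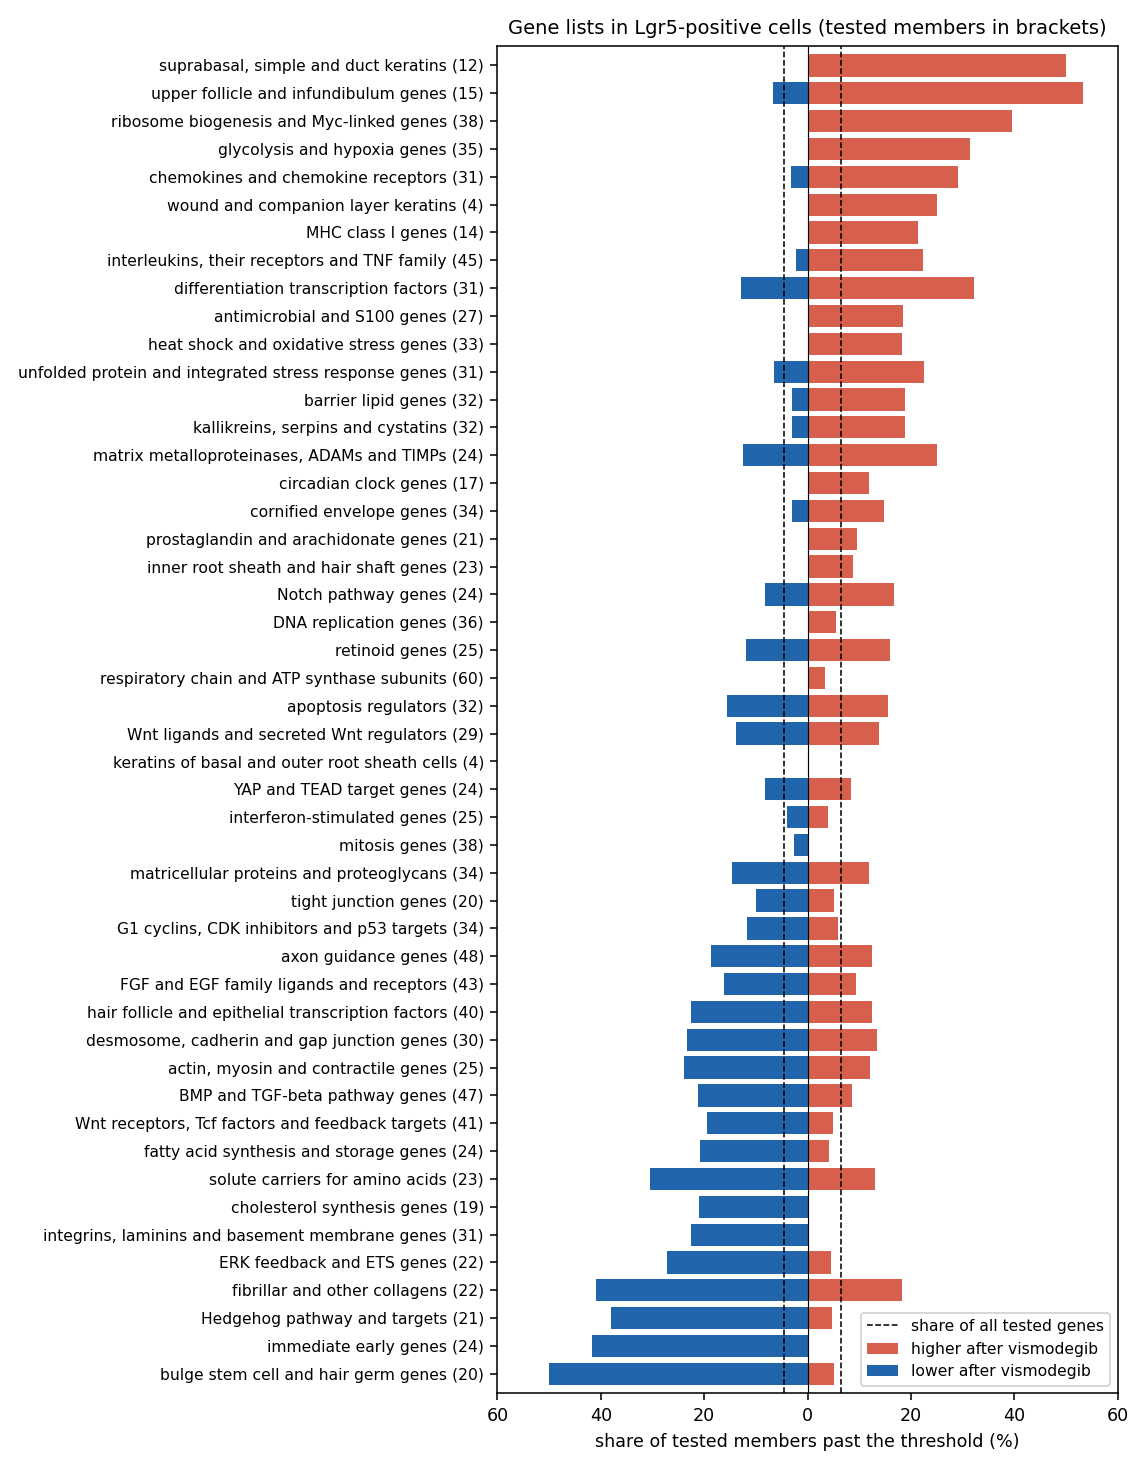
Share of tested members (%) of each of the 48 gene lists that passed the threshold, higher after vismodegib to the right in red and lower to the left in blue, with the number of tested members in brackets. Dashed lines mark the shares over all tested genes, 6.37% and 4.51%; suprabasal keratins and upper follicle genes reach furthest to the higher side and bulge, immediate early and collagen genes furthest to the lower side, beside the Hedgehog list.

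Transcription factors of the hair follicle had more lower members and those of epidermal differentiation more higher ones. Of 40 follicle and epithelial factors, 9 were lower and 5 higher (median −0.13). Lhx2, a LIM homeobox factor of follicle stem cells, stood at 10.67 and 10.75 untreated and at 7.41 and 7.86 after vismodegib (−3.08 ± 0.18, 8.44-fold). Sox13, an HMG-box factor, fell from 10.05 and 10.03 to 5.83 and 6.57 (−3.84 ± 0.22). For both the untreated arrays nearly coincided and lay above both treated ones. The T-box factor Tbx1 (−2.53 ± 0.29) and Tcf7l1 (−1.65 ± 0.22), a Tcf repressor of bulge cells, fell in the same arrays, and the forkhead factor Foxc1 fell less (−0.87 ± 0.14). On the other side, Sox21, known from hair cuticle and sebaceous lineages, rose from 7.12 and 8.01 to 10.67 and 10.82 (3.18 ± 0.28, adjusted p = 0.000746 by limma). The homeobox factor Meis2 rose from 5.61 and 5.34 to 7.76 and 7.95 (2.38 ± 0.15, or 1.33 as the mean of its probe sets). Foxc1 did not pass without vismodegib array 1 or 2. The list had 3 higher and 6 lower members without vismodegib array 1, 2 and 7 without vismodegib array 2, and 3 and 9 without untreated array 1.

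Of 31 differentiation factors, 10 rose and 4 fell, with a median of −0.05. Grhl3, a grainyhead factor needed for barrier formation, stood at 6.26 and 6.36 untreated and at 7.97 and 7.79 treated (1.57 ± 0.25). Ehf, an ETS factor of differentiating epithelium, rose from 7.06 and 7.75 to 9.69 and 9.30 (2.09 ± 0.25), though its other probe sets ranged from −0.14 to 3.16. The octamer factors of suprabasal layers, Pou2f3 (1.46 ± 0.23) and Pou3f1 (1.88 ± 0.34, 1.01 as the mean of probe sets), rose with them, as did the oestrogen receptor Esr1 (1.65 ± 0.31), the zinc finger factor Ovol1 (1.17 ± 0.25) and the nuclear receptor Rora (0.91 ± 0.19). Klf6 (−0.47 ± 0.12) and the Notch target Hes1 (−0.73 ± 0.16) were lower. This list leaned on single arrays. Its counts were 3 higher and 1 lower without vismodegib array 1, 5 and 1 without vismodegib array 2 and 7 and 1 without untreated array 2. Ehf passed in each of these fits. Grhl3 and Pou2f3 did not pass without vismodegib array 1, Pou3f1 without vismodegib array 2, and Esr1 without either. Ovol1, Rora, Klf6 and Hes1 did not pass without any of 4 or more of the 8 arrays, the untreated Lgr5-negative ones among them, and Ovol1 then ranged from 0.75 to 1.59. With the mouse number as a replicate block Klf6 did not pass.

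Several suprabasal keratins rose, while no basal one passed. Of 12 suprabasal, simple and duct keratins 6 were higher and 0 lower, a median of 0.62. Krt77, a keratin of differentiated and eccrine duct cells, stood at 5.49 and 5.81 untreated and at 10.66 and 9.74 treated (4.55 ± 0.41). Krt10, the type I keratin of the spinous layer, rose from 9.61 and 9.91 to 11.37 and 11.50 (1.68 ± 0.13), and its partner Krt1 from 8.61 and 9.87 to 10.87 and 11.39 (1.89 ± 0.37). In all 3 keratins both treated arrays lay above both untreated ones. Krt7 (1.84 ± 0.25) and Krt80 (1.64 ± 0.13), of simple epithelia and early differentiation, and Krt79 of the upper follicle (0.68 ± 0.13) rose too. Of the 4 basal and outer root sheath keratins none passed, with Krt5 at 0.01 ± 0.11 and Krt14 at 0.25 ± 0.12. Of the 4 wound and companion layer keratins Krt6a alone was higher (0.83 ± 0.18). Krt1, Krt79 and Krt6a did not pass without either vismodegib array, Krt79 and Krt6a also not without untreated array 1, and Krt6a not without either untreated Lgr5-negative array. Over the fits without 1 array Krt1 lay between 1.26 and 2.52.

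Upper follicle and infundibulum genes had 8 higher and 1 lower of 15, with a median of 0.88, and 11 lay above 0 and 4 below. The lower member was Lgr6. Lrig1, by which the cells were also sorted, was not called (−0.15). Aqp3, a water and glycerol channel of keratinocytes, rose from 8.50 and 9.77 to 12.92 and 12.85 (3.75 ± 0.34). It was among the brightest genes of the treated arrays. Cst6, an inhibitor of cysteine proteases in the cornified layer, rose from 6.65 and 7.39 to 10.84 and 9.80 (3.30 ± 0.35). The β-defensin Defb6 (2.14 ± 0.30), the activin inhibitor follistatin (Fst, 1.97 ± 0.18), the BMP and Wnt inhibitor Sostdc1 (1.75 ± 0.31) and Plet1, a surface protein of the upper follicle (0.96 ± 0.20), were higher. The list had 5 higher members without vismodegib array 1 or 2. Sostdc1 did not pass without vismodegib array 2, and Plet1 not without vismodegib array 1 or either untreated array. Defb1, another β-defensin, from the list of antimicrobial and S100 genes (5 higher and 0 lower of 27, median −0.01), rose from 6.65 and 7.21 to 10.23 and 10.49 (3.43 ± 0.33). That list had 2 higher members without vismodegib array 1, 3 without vismodegib array 2, and 3 higher and 2 lower without untreated array 1.

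Of the 48 lists, bulge and hair germ genes had the largest share lower, 10 of 20 with 1 higher (median −0.87). Serpina3n, a serine protease inhibitor, fell from 9.75 and 10.27 to 6.73 and 7.34 (−2.98 ± 0.27). Npnt, the matrix protein nephronectin, on which the muscle attached to the bulge anchors, fell from 10.93 and 11.14 to 8.68 and 9.27 (−2.06 ± 0.27). The Wnt inhibitor Wif1 (−2.26 ± 0.20) and the Dickkopf family member Dkk3 (−1.67 ± 0.22) were lower as well. So were the BMP inhibitor Grem1 (−1.89 ± 0.29) and the Hedgehog co-receptor Gas1 (−1.30 ± 0.23). Tgfb2, a growth factor of the resting follicle, was the higher member (1.58 ± 0.24). The list had 4 lower members without vismodegib array 1, and Grem1, Gas1 and Lgr5 did not pass. Lgr5 also did not pass without either untreated array.

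**Figure D3:**
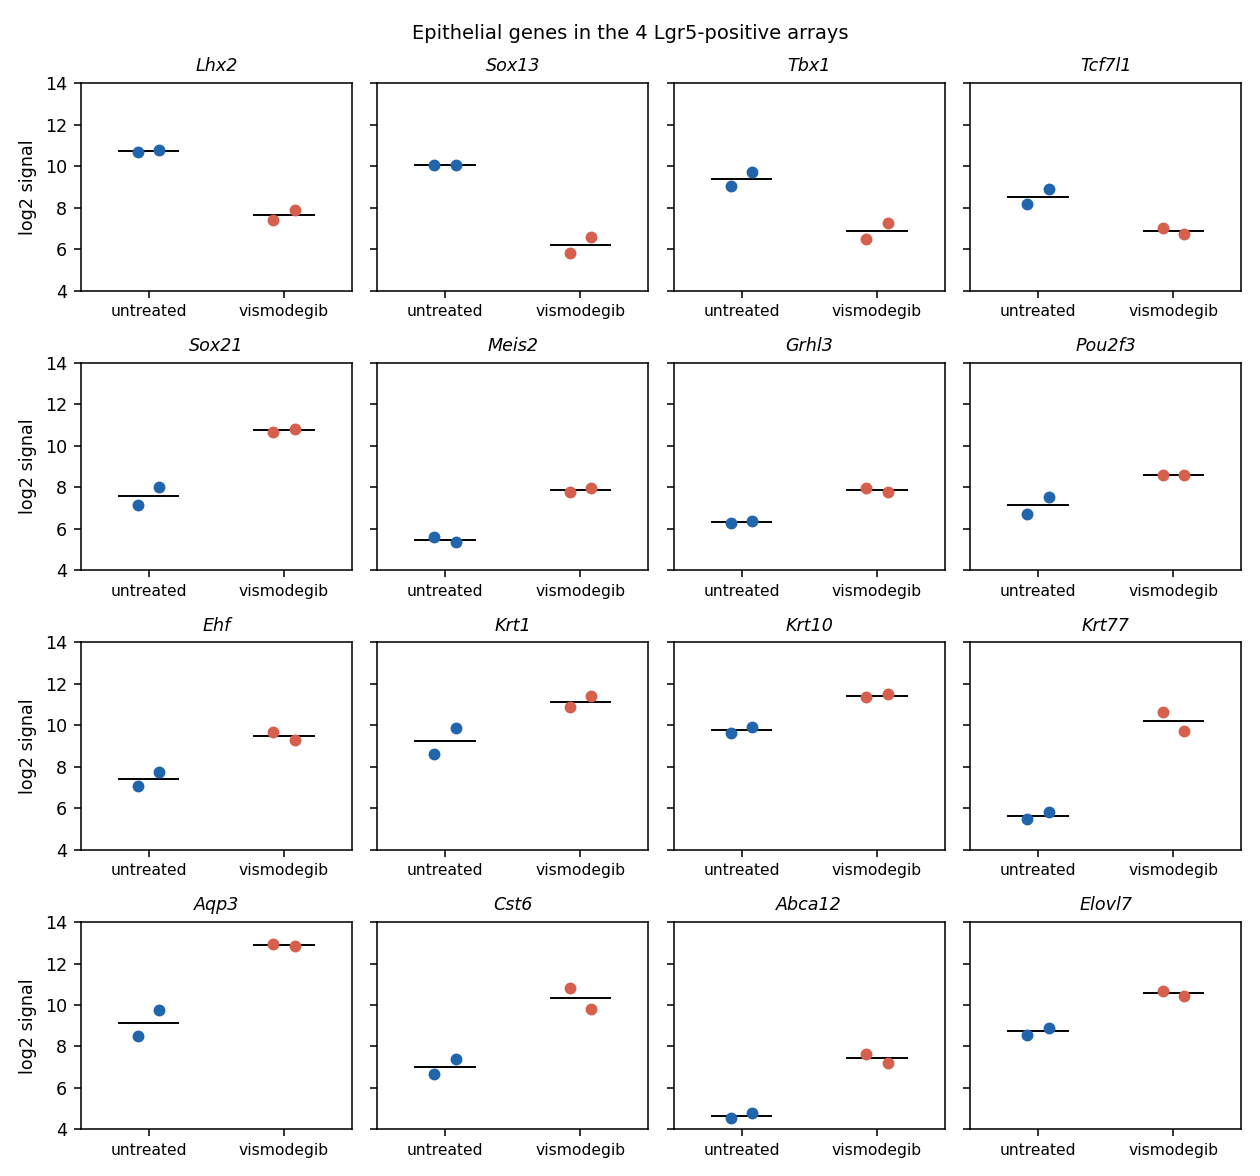
Log2 signal of 16 epithelial genes in each of the 4 Lgr5-positive arrays, untreated in blue and vismodegib in red, with a line at each mean of n = 2. In every panel both treated arrays lie on the same side of both untreated ones; Lhx2, Sox13, Tbx1 and Tcf7l1 are lower and the other 12 higher, with Abca12 rising from 4.54 and 4.79.

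Cornified envelope and barrier lipid genes rose only in part. Of 34 envelope genes, 5 were higher and 1 lower, with a median of 0.07, and 18 lay above 0. The small proline-rich precursor Sprr1a rose from 7.22 and 8.45 to 10.59 and 9.67 (2.30 ± 0.43). The calmodulin-like Calm4 (1.26 ± 0.22), sciellin (Scel, 1.25 ± 0.23), periplakin (Ppl, 0.85 ± 0.15) and dermokine (Dmkn, 0.94 ± 0.24) were higher, and the transglutaminase Tgm5 lower (−1.17 ± 0.24). Of 32 lipid genes 6 rose and 1 fell (median 0.02), and without untreated array 1 the counts were 6 and 3 with a median of −0.04. Abca12, which loads lipid into lamellar granules, rose from 4.54 and 4.79 to 7.63 and 7.22 (2.76 ± 0.17). Both untreated values lie under 4.85, the level set for dim probe sets, and against that level Abca12 rose at least 5.95-fold. The fatty acid elongases Elovl7 (1.82 ± 0.18), Elovl4 (0.98 ± 0.18) and Elovl1 (0.86 ± 0.14), and Abhd5, a lipase cofactor of barrier lipid synthesis (1.22 ± 0.20), rose as well, and the ceramide synthase Cers4 fell (−1.35 ± 0.21). With probe sets averaged, Elovl1 missed the threshold. Without vismodegib array 1 the envelope list had 0 calls and the lipid list 2 higher, and Sprr1a, Tgm5, Abhd5 and Cers4 did not pass. Without vismodegib array 2 the counts were 2 higher and 3 higher. Calm4, Scel, Ppl, Dmkn, Elovl4 and Elovl1 did not pass without either of these arrays. Without untreated array 2, Ppl and Tgm5 did not pass. Dmkn passed only without untreated array 2, at 0.55 to 1.33 over the 8 fits, and failed with the mouse number as a replicate block and after cyclic loess.

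Collagen genes changed both ways, and the type IV genes did so in neighbouring pairs. Of 22 collagens 9 were lower and 4 higher, with a median of −0.56. Type IV collagen is the network of basement membranes, and its genes lie head to head, Col4a1 beside Col4a2, Col4a3 beside Col4a4 and Col4a5 beside Col4a6. Col4a1 fell from 11.53 and 11.46 to 9.51 and 9.87 (−1.80 ± 0.21). Col4a2 fell from 9.76 and 9.84 to 7.99 and 8.16 (−1.73 ± 0.23). Both members of this pair were about as much lower, in each treated array. Col4a4 fell from 8.36 and 8.31 to 5.89 and 5.82 (−2.48 ± 0.19, adjusted p = 0.000452 by limma), and Col4a3 from 7.33 and 7.54 to 5.72 and 6.16 (−1.49 ± 0.25). Their levels as the mean of probe sets fell by 1.62 for Col4a4 and by 0.83 for Col4a3. The X-linked pair went the other way. Col4a6 rose from 7.64 and 7.42 to 8.39 and 8.70 (1.02 ± 0.15), and Col4a5 from 6.67 and 6.12 to 7.43 and 7.37 (1.00 ± 0.23). Col4a5 did not pass as the mean of probe sets, nor without untreated array 2 or either vismodegib array, and Col4a3 did not pass without untreated array 2 or vismodegib array 1. Col4a3, Col4a5 and Col4a6 were named after their values were seen, to complete the pairs.

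The promoter windows of these genes are shown because each pair has its start sites close together and read in opposite directions. They run from 250 bases before to 50 after the annotated start, from RefSeq on GRCm38.p6. Those of Col4a1 (chr8:11312777-11313076, minus strand) and Col4a2 (chr8:11312555-11312854, plus strand) share 78 bases, written in capitals in both and read on opposite strands. Those of Col4a6 (chrX:141474027-141474326, minus strand) and Col4a5 (chrX:141475169-141475468, plus strand) lie 842 bases apart, and that of Col4a4 (chr1:82586800-82587099, minus strand) is given alone.
Col4a1: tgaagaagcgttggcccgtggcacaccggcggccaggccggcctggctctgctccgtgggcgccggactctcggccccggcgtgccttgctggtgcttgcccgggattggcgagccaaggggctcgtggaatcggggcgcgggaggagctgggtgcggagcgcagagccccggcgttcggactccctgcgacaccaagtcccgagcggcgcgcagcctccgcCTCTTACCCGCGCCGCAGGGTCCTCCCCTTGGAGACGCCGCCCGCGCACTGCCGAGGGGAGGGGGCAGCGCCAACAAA
Col4a2: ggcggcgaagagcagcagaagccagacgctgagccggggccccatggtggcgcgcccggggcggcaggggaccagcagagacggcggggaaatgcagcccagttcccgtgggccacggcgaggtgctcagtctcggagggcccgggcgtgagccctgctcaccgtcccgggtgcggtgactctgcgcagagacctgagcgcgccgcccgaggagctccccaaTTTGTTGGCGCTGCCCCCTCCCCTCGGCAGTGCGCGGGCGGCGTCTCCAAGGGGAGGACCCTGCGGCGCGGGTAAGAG
Col4a4: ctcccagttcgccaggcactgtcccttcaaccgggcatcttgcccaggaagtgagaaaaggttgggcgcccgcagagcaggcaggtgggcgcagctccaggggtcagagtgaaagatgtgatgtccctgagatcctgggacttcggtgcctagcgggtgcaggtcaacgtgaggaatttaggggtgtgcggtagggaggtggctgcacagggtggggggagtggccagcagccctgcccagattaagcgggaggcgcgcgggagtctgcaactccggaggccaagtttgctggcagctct
Col4a6: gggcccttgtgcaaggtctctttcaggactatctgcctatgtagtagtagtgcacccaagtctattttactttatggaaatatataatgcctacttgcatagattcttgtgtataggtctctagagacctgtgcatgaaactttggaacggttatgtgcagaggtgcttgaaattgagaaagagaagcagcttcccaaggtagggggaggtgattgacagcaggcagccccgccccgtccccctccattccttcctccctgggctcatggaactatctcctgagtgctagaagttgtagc
Col4a5: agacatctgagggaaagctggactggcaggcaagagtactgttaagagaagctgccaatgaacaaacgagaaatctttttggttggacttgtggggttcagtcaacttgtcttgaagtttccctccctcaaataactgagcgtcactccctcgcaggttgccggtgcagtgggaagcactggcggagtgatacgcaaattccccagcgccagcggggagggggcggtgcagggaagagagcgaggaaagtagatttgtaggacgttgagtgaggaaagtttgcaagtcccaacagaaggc
The GC content was 74% for Col4a1 and 73.7% for Col4a2, 63.3% for Col4a4, 48.3% for Col4a6 and 52.7% for Col4a5, against a median of 52.7% over 32851 windows of the same length. The pair at the highest GC content and Col4a4 were among the genes that fell, but Col4a3, which fell too, has no window here. A relation of GC content to the direction of change was not tested. The letters CCAAT, on either strand, occurred 1 time each in the Col4a1, Col4a2 and Col4a5 windows and 0 times in those of Col4a4 and Col4a6. They occur in 37.4% of all windows. The letters TATAAA, searched on the given strand, were in none of the 5.

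Other collagens changed as well. Col27a1, a fibrillar collagen of cartilage, fell from 10.07 and 9.41 to 6.32 and 5.93 (−3.61 ± 0.29, or −2.61 as the mean of probe sets). Col2a1, the main cartilage collagen, fell from 10.18 and 9.34 to 6.62 and 6.59 (−3.16 ± 0.39). Col14a1 (−2.73 ± 0.46) and Col5a2 (−2.35 ± 0.23, −1.68 as the mean of probe sets), which organise fibrils, were lower too. Col16a1, of the fibril-associated collagens, rose from 7.32 and 7.07 to 9.13 and 9.37 (2.06 ± 0.22). Col14a1 did not pass without vismodegib array 1, and the collagen list had 2 higher and 6 lower. The higher members were also 2 without vismodegib array 2 and 2 without untreated array 2.

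Of 31 integrins, laminins and other basement membrane genes, 7 were lower and 0 higher (median −0.16), and with probe sets averaged 7 were lower and 2 higher. Lamb1, the laminin β1 chain, fell from 8.33 and 8.66 to 6.28 and 6.22 (−2.24 ± 0.18, 4.73-fold). Its probe set can bind related transcripts, and the other probe sets gave −2.73 to −1.90. Lamc1, the γ1 chain (−0.99 ± 0.14), and Lama3, the α3 chain of epidermal laminin (−1.10 ± 0.16), fell less. Fras1, which anchors epithelium to dermis, fell from 10.27 and 9.95 to 7.82 and 7.78 (−2.31 ± 0.14). Egfl6, a basement membrane protein of the upper bulge, was dim in both treated arrays (6.35 and 5.04 against 3.84 and 4.19, −1.68 ± 0.37). Against the level of 4.85 set for dim probe sets, Egfl6 fell at least 1.79-fold. Integrin genes had no call in either direction with the brightest probe set of each. Lama3 did not pass without vismodegib array 1, and Egfl6 not without either vismodegib or either untreated Lgr5-negative array, and over the fits without 1 array it ranged from −2.33 to −1.02.

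Matricellular proteins and proteoglycans split, with 5 lower and 4 higher of 34 (median −0.11). Biglycan (Bgn), a small proteoglycan, fell from 10.56 and 10.41 to 7.59 and 7.91 (−2.73 ± 0.18). The fibulins Fbln1 (−1.40 ± 0.33) and Efemp1 (−1.77 ± 0.14) were lower. Efemp1 lay under 4.85 in both treated arrays, and against that level it fell at least 2.37-fold. Tnc, tenascin C, rose from 6.39 and 6.71 to 8.83 and 9.08 (2.41 ± 0.17, or 1.28 as the mean of probe sets). Thbs2, thrombospondin 2, rose from 5.19 and 5.48 to 8.42 and 9.60 (3.67 ± 0.53). Fibronectin (Fn1) rose from 5.23 and 5.43 to 8.393 and 7.002 (2.37 ± 0.38). Fibronectin is also made by macrophages, whose markers rose in the same arrays by the values given above, and their part in it was not tested. Leaving out any 1 of the 4 untreated arrays, or vismodegib array 1, ended the call of Fbln1. The list had 3 higher and 2 lower members without vismodegib array 1, 3 and 3 without vismodegib array 2 or without untreated array 2, and 5 and 3 without untreated array 1.

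**Figure D4:**
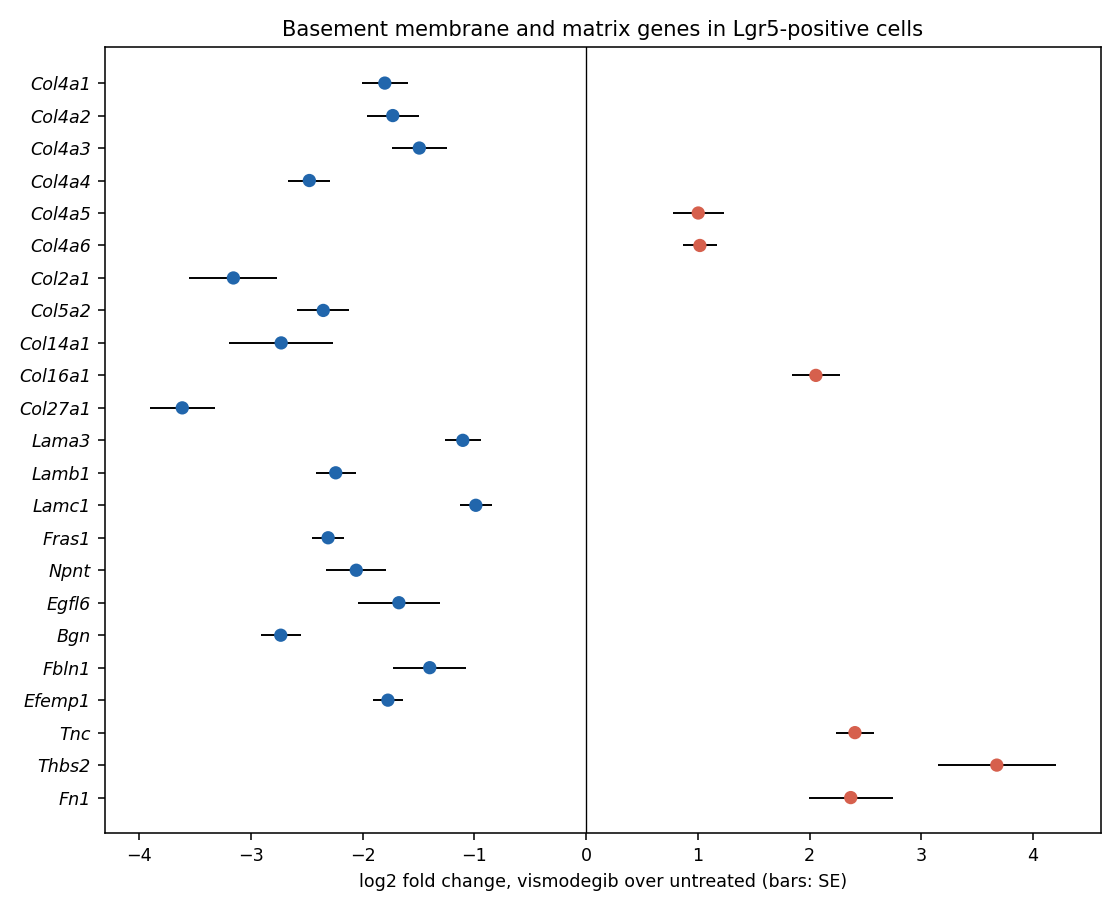
Log2 fold change, vismodegib over untreated, of 23 basement membrane and matrix genes in Lgr5-positive cells, with bars of 1 SE from limma (n = 2 mice a group). Of the collagen IV genes Col4a1 to Col4a4 lie below 0 and Col4a5 and Col4a6 above it; Tnc, Thbs2, Fn1 and Col16a1 rose and the other 13 genes fell.

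Among proteases and their inhibitors more members were higher than lower. Of 32 genes on a list of kallikreins, other serine proteases, serpins and cystatins, 6 were higher and 1 lower (median 0.27). Klk11, a kallikrein, rose from 6.80 and 7.32 to 9.67 and 9.48 (2.51 ± 0.18). Tmprss4, a membrane serine protease of epithelia, rose from 4.97 and 5.21 to 8.03 and 7.37 (2.61 ± 0.21). The serpin Serpinb5, known as maspin (0.90 ± 0.15), and the kallikrein Klk8 of the desquamation cascade (0.96 ± 0.22) rose less. Of 24 metalloproteinases, ADAMs and TIMPs 6 were higher and 3 lower (median −0.03). Adamts1, which cleaves versican, fell from 11.02 and 10.64 to 9.24 and 9.12 (−1.65 ± 0.18), and Mmp11 fell too (−1.31 ± 0.20). Mmp19 (2.92 ± 0.47, or 1.59 as the mean of probe sets) and the gelatinase Mmp2 (0.97 ± 0.16) rose. Without vismodegib array 1 the counts were 3 higher and 1 lower for the first list and 2 and 1 for the second, and Mmp11 and Mmp2 did not pass. Without vismodegib array 2 they were 3 and 1, and 3 and 2. The metalloproteinase list had 4 higher without untreated array 2 and 5 lower without untreated array 1. Serpinb5 and Klk8 did not pass without either vismodegib array. Klk8 also did not pass without untreated array 1 or either untreated Lgr5-negative array, nor with the mouse number as a replicate block.

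Cell contact genes changed both ways. Among desmosome, cadherin and gap junction genes 7 of 30 were lower and 4 higher (median 0.08). Ncam1, a neural adhesion molecule of hair germ, fell from 11.63 and 11.19 to 8.36 and 9.70 (−2.38 ± 0.53), though its other probe sets ranged from −3.44 to −0.21. The related Nrcam (−2.04 ± 0.25) and Alcam (−0.90 ± 0.18) fell, and so did the connexins Gja1 (−0.98 ± 0.14) and Gjb2 (−1.10 ± 0.19), which form gap junctions. E-cadherin (Cdh1, 0.56 ± 0.11) and T-cadherin (Cdh13, from 7.79 and 8.48 to 10.43 and 10.34, 2.25 ± 0.23) rose. The tight junction list had 1 higher and 2 lower of 20 (median 0.05). Of it Cldn10, a claudin, fell from 8.53 and 8.21 to 4.70 and 4.72 (−3.66 ± 0.17). Both treated values lie under the level of 4.85 set for dim probe sets, and against it Cldn10 fell at least 11.4-fold. Its probe set can bind related transcripts. Without either vismodegib array the tight junction list had 0 higher and 1 lower, and without untreated array 1 it had 3 and 1. The contact list had 1 higher and 2 lower without vismodegib array 1, 2 and 4 without vismodegib array 2, and 4 lower without either untreated array. Alcam, Gjb2 and Cdh1 did not pass without either vismodegib array. Alcam also did not pass without untreated array 1, and Cdh1 not without untreated array 2. Ncam1 did not pass without any of 5 arrays, vismodegib array 1, both untreated ones and both untreated Lgr5-negative ones.

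Among BMP and TGF-β genes 10 of 47 were lower and 4 higher (median −0.24). Tgfb3, a ligand, fell from 10.84 and 10.34 to 7.51 and 7.88 (−2.89 ± 0.21, 7.43-fold). Fstl1, a secreted glycoprotein that binds BMP ligands, fell from 10.08 and 9.20 to 6.34 and 6.61 (−3.16 ± 0.29). The ligand Bmp6 fell too (−1.58 ± 0.36). The higher members included Fst and Tgfb2, given above, so within this pathway the Tgfb2 and Tgfb3 ligands moved in opposite directions. Bmp6 did not pass without untreated array 1 or either vismodegib array. The list had 2 higher and 3 lower without vismodegib array 1, and 2 and 5 without vismodegib array 2. It had 3 and 6 without untreated array 2.

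Wnt genes changed in both directions. Of 29 ligands and secreted regulators 4 were higher and 4 lower (median −0.05), and of 41 receptors, Tcf factors and feedback targets 2 were higher and 8 lower (median −0.17). The ligand Wnt10a rose from 6.55 and 7.25 to 8.67 and 8.58 (1.72 ± 0.22), while Wnt7b fell (−1.24 ± 0.28). The membrane inhibitor Apcdd1 rose (2.14 ± 0.31). Lef1, a nuclear partner of β-catenin, fell from 6.75 and 7.25 to 5.17 and 5.31 (−1.76 ± 0.19), and the receptors Fzd2 (−1.71 ± 0.28) and Lgr4 (−1.10 ± 0.18), the latter for R-spondins as is Lgr5, were lower. Tnfrsf19, a target of β-catenin signalling, rose from 6.43 and 6.66 to 9.11 and 9.24 (2.63 ± 0.15). Without vismodegib array 1 the counts were 4 higher and 2 lower for the first list and 1 and 3 for the second, and Lgr4 did not pass. Without vismodegib array 2 they were 2 and 3, and 1 and 6. Without untreated array 2 the second list had 1 and 6. Wnt7b did not pass without untreated array 2 or either vismodegib array.

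Notch genes had 4 higher and 2 lower of 24 (median −0.01). The ubiquitin ligase Dtx4 rose from 6.61 and 6.90 to 8.93 and 8.63 (2.03 ± 0.17), the receptor Notch3 by 1.39 ± 0.19, the ligand Dll1 by 1.16 ± 0.23 and the receptor-modifying glycosyltransferase Rfng by 1.17 ± 0.15. The ligand Jag1 fell (−0.79 ± 0.13). Notch3 is read by a probe set that can bind related transcripts. Dll1 and Jag1 did not pass without either vismodegib array, and the list then had 3 higher and 0 lower, while without untreated array 2 it had 4 and 1.

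Growth factor signalling genes had more lower than higher members. Of 22 ERK feedback and ETS genes, which ERK activity induces, 6 were lower and 1 higher (median −0.36). Spry4, a feedback inhibitor of receptor tyrosine kinases, fell from 9.50 and 9.16 to 6.07 and 5.97 (−3.31 ± 0.15, or −1.74 as the mean of probe sets). The related Spry1 (−1.93 ± 0.23) and Spry2 (−1.55 ± 0.15) and the ETS factors Etv4 (−2.28 ± 0.19) and Etv5 (−1.41 ± 0.27) fell with it. Of 43 genes on a list of FGF, EGF and other growth factor ligands, receptors and binding proteins, 7 were lower and 4 higher (median −0.14). Its lowest and highest members, Igfbp6 and Vegfa, are of neither the FGF nor the EGF family. Stem cell factor (Kitl, −1.27 ± 0.18) and the IGF-binding protein Igfbp6 (−2.10 ± 0.18) were lower. Vegfa, the vascular growth factor, rose from 8.46 and 8.59 to 10.53 and 10.18 (1.83 ± 0.19), and the FGF carrier Fgfbp1 (1.48 ± 0.26) and the receptor Met (1.16 ± 0.24) rose as well. Etv5 did not pass without untreated array 1 or vismodegib array 1, and Fgfbp1 and Met not without either vismodegib array. Met also did not pass without untreated array 2 or either untreated Lgr5-negative array. The second list had 1 higher and 2 lower without vismodegib array 1, 2 and 4 without vismodegib array 2, 4 and 4 without untreated array 1, and 4 and 3 without untreated array 2. The ERK list had 4 lower without vismodegib array 1.

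Of 24 immediate early genes, transcribed within minutes of a stimulus, 10 were lower and 0 higher (median −0.32), and 4 lay above 0. Maff fell from 9.46 and 9.53 to 7.93 and 8.03 (−1.51 ± 0.18) and Egr3 from 9.47 and 9.61 to 8.52 and 8.30 (−1.13 ± 0.14). Jun (−0.95 ± 0.12), Junb (−1.01 ± 0.19) and the orphan receptor Nr4a1 (−0.95 ± 0.20) were lower by about 1 log2 unit. The list had 3 lower without vismodegib array 1, 4 without vismodegib array 2 and 6 without untreated array 2. Junb and Nr4a1 did not pass without either vismodegib array, and Nr4a1 not without untreated array 2.

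Axon guidance genes, which also steer epithelial cells, had 9 lower and 6 higher of 48 (median −0.05). The semaphorin co-receptor Nrp2 fell from 10.26 and 10.11 to 8.12 and 7.88 (−2.19 ± 0.17), with its ligand family member Sema3e (−1.63 ± 0.35) and the ephrin receptor Ephb1 (−1.36 ± 0.15). The Slit receptor Robo1 rose from 7.38 and 6.74 to 9.12 and 9.38 (2.19 ± 0.21). Sema3e did not pass without either untreated array or vismodegib array 1. The list had 1 higher and 4 lower without vismodegib array 1, 4 and 6 without vismodegib array 2, and 4 and 7 without untreated array 2.

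Part of the ribosome biogenesis genes rose. Of 38 ribosome biogenesis and Myc-linked genes 15 were higher and 0 lower (median 0.48), and 34 lay above 0. Heatr1, a factor of pre-ribosomal RNA processing, rose from 7.26 and 7.18 to 8.72 and 8.67 (1.48 ± 0.11, adjusted p = 0.000468 by limma). Odc1, the rate-limiting enzyme of polyamine synthesis, rose from 7.99 and 8.17 to 9.16 and 9.40 (1.20 ± 0.14). Noc3l (1.57 ± 0.23), the RNA polymerase I subunit Polr1b (1.12 ± 0.18), Rrs1 (0.93 ± 0.15) and the Myc family member Mycl (1.60 ± 0.29) rose with them. Mycn, another family member and a Hedgehog target, fell (−1.44 ± 0.14), although its other probe sets ranged from −2.50 to −0.16. It is counted on the Hedgehog list and not among these 38 genes, so the count of 0 lower leaves it out. The ribosome list had 3 higher members without vismodegib array 1, and without vismodegib array 2 it had 5 and without untreated array 1 it had 9. Noc3l and Polr1b did not pass without vismodegib array 1, Mycl not without vismodegib array 2 and Rrs1 not without either.

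Of 38 mitosis genes 0 were higher and 1 lower, Cdca3 (−0.79 ± 0.17), with a median of −0.16. Of 36 DNA replication genes 2 were higher and 0 lower (median 0.02), and without any 1 of the 4 Lgr5-positive arrays none was. Among G1 cyclins, CDK inhibitors and p53 targets 2 of 34 rose and 4 fell (median −0.12). Cdkn2b, the inhibitor p15 of the D cyclin kinases, fell from 8.51 and 8.82 to 5.89 and 5.95 (−2.75 ± 0.26). Cyclin D2 (Ccnd2) rose from 9.38 and 9.71 to 11.52 and 11.65 (2.04 ± 0.21), and its 5 other probe sets gave 2.29 to 2.70. The kinase Plk2 rose (1.41 ± 0.20) and the stress sensor Gadd45g fell (−1.31 ± 0.26). Cdca3 did not pass without untreated array 2 or either vismodegib array, and Gadd45g not without untreated array 2 or vismodegib array 1. Without untreated array 1 the mitosis list had 3 lower, and the G1 list had 1 lower without vismodegib array 1.

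Glycolysis and hypoxia genes had 11 higher and 0 lower of 35 (median 0.24). Their median was 0.09 without untreated array 1, and cyclic loess gave 9 higher and 1 lower. The phosphofructokinase subunits, at the committed step of glycolysis, rose together, Pfkl from 8.82 and 9.26 to 10.45 and 10.61 (1.49 ± 0.17) and Pfkp from 10.76 and 10.56 to 11.67 and 11.76 (1.06 ± 0.15). The lactate carrier Slc16a1 (1.88 ± 0.21, or 1.17 as the mean of probe sets), the hypoxia factor Hif1a (1.44 ± 0.17) and its hydroxylase Egln3 (2.62 ± 0.61) rose. Respiratory chain subunits had 2 higher and 0 lower of 60 (median 0.17, 45 above 0). Without untreated array 1 their median was −0.08 with 2 higher and 1 lower, and without vismodegib array 2 there were 0 calls. Egln3 differed between the untreated arrays (5.87 and 8.15). It did not pass without either vismodegib or either untreated Lgr5-negative array, and over the fits without 1 array it ranged from 1.48 to 3.76. Without vismodegib array 1 the glycolysis list had 6 higher members and without vismodegib array 2 it had 7.

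Amino acid carriers had more lower than higher members, with 7 lower and 3 higher of 23 (median −0.21). Beside Slc7a2, the neutral amino acid carrier Slc38a4 fell from 11.92 and 12.19 to 8.46 and 9.47 (−3.09 ± 0.46) and the taurine carrier Slc6a6 from 10.96 and 11.20 to 9.82 and 10.04 (−1.15 ± 0.13). The glutamine carrier Slc1a5 rose (1.40 ± 0.32), but did not pass without any of the 4 Lgr5-positive or either untreated Lgr5-negative array. The list had 0 higher and 4 lower without vismodegib array 1, 1 and 5 without vismodegib array 2, and 1 higher without either untreated array.

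Of 24 fatty acid genes 5 were lower and 1 higher (median −0.21), and of 19 cholesterol synthesis genes 4 were lower and 0 higher (median −0.40). The desaturases Fads1 (−1.99 ± 0.17, −1.24 as the mean of probe sets) and Fads2 (−1.12 ± 0.14), neighbours that act in the same pathway of polyunsaturated fatty acids, fell together, with the elongase Elovl6 (−1.63 ± 0.42). The cholesterol enzymes Lss (−1.14 ± 0.28) and Msmo1 (−1.03 ± 0.25) fell. Elovl6, Lss and Msmo1 were weakly held, each failing without any of 6 or more of the 8 arrays and Elovl6 ranging from −2.36 to −0.90. The cholesterol list had 0 lower without vismodegib array 1, 2 without vismodegib array 2, 2 without untreated array 1 and 1 without untreated array 2. The fatty acid list had 2 lower without vismodegib array 1 and 3 without untreated array 2.

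Retinoid genes had 4 higher and 3 lower of 25 (median −0.01). Adh7, which oxidises retinol, rose from 8.03 and 8.66 to 11.46 and 11.67 (3.22 ± 0.20), and the aldehyde dehydrogenase Aldh3a1 from 8.76 and 9.44 to 11.49 and 11.47 (2.38 ± 0.22). Aldh1a3, which makes retinoic acid, fell (−1.34 ± 0.15). The retinoic acid carrier Crabp2 was higher (1.74 ± 0.38), but did not pass without either vismodegib or either untreated Lgr5-negative array, and over the fits without 1 array it lay between 1.10 and 2.38. The list had 2 higher and 1 lower without vismodegib array 1, 3 and 1 without vismodegib array 2 and 4 and 1 without untreated array 2.

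Stress and chaperone genes were mostly higher where they passed. Of 33 heat shock and oxidative stress genes 6 were higher and 0 lower (median 0.20). Sulfiredoxin (Srxn1), which repairs oxidised peroxiredoxins, rose from 6.42 and 6.41 to 8.91 and 8.53 (2.30 ± 0.21, or 1.51 as the mean of probe sets). Glutathione reductase (Gsr, 1.54 ± 0.15), haem oxygenase 1 (Hmox1, 1.58 ± 0.23), which macrophages also express strongly, and the chaperone Hsph1 (1.55 ± 0.12) rose as well. Of 31 genes of the unfolded protein and integrated stress responses 7 were higher and 2 lower (median 0.26). Ddit4, an inhibitor of mTORC1, fell from 10.18 and 10.06 to 7.74 and 8.65 (−1.92 ± 0.26) and the chaperone cofactor Sdf2l1 rose (1.30 ± 0.24). Sdf2l1 did not pass without untreated array 2 or vismodegib array 2. The second list had 1 higher and 1 lower without vismodegib array 1, 0 and 1 without vismodegib array 2, 2 and 1 without untreated array 2, 4 and 2 without untreated array 1, and 4 and 2 after cyclic loess.

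Among apoptosis regulators 5 of 32 were higher and 5 lower (median 0.03). Gasdermin A (Gsdma), a pore-forming protein of skin, fell from 10.55 and 10.09 to 8.69 and 7.73 (−2.10 ± 0.33). Casp4, an inflammatory caspase, rose (1.66 ± 0.24), and the survival factor Bcl2 fell (−0.89 ± 0.22). Casp4 did not pass without vismodegib array 1. Bcl2 did not pass without any of the 4 Lgr5-positive or either untreated Lgr5-negative array, nor with the mouse number as a replicate block. The list had 0 higher and 1 lower without vismodegib array 1, 2 and 1 without vismodegib array 2, 2 and 2 without untreated array 1 and 2 and 1 without untreated array 2.

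Cytoskeletal genes had 6 lower and 3 higher of 25 (median −0.03). Pdlim7, of actin fibres, fell from 9.49 in both untreated arrays to 8.04 and 7.70 (−1.62 ± 0.14). Lmo7, of adherens junctions, rose (2.38 ± 0.19, 1.60 as the mean of probe sets). Vim, the intermediate filament of mesenchymal and blood cells, rose from 6.46 and 6.16 to 9.77 and 9.38 (3.26 ± 0.22). The mean macrophage marker level rose in the same arrays, and its part in this was not tested. The list had 2 higher and 1 lower without vismodegib array 1, 2 and 4 without vismodegib array 2, 2 and 3 without untreated array 1 and 3 and 4 without untreated array 2.

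Some chemokine and interleukin genes rose in the arrays where the macrophage markers were higher. Of 31 chemokines and receptors 9 were higher and 1 lower (median 0.27), and of 45 interleukins, their receptors and TNF family genes 10 were higher and 1 lower (median 0.07). The myeloid chemokines Ccl6, from 5.04 and 5.22 to 8.83 and 8.17 (3.37 ± 0.21), and Ccl9 (3.54 ± 0.50, or 2.19 as the mean of probe sets), the platelet factor Pf4 (3.91 ± 0.32, from a level under 4.85, at least 13.5-fold) and the neutrophil chemokine Cxcl2 (3.14 ± 0.36) rose most. Ccl27a, a keratinocyte chemokine, rose too (2.10 ± 0.36, or 1.00 as the mean of probe sets), as did Cxcl16 (0.86 ± 0.15). Il1rn, the interleukin 1 receptor antagonist, which keratinocytes and macrophages both make, rose from 6.17 and 6.92 to 9.55 and 9.35 (2.90 ± 0.25). Il6ra, a subunit of the interleukin 6 receptor (1.57 ± 0.16), and Il1b (1.40 ± 0.34) were higher. Over the same arrays the mean level of the macrophage markers rose by the amounts given above, and their part in these changes was not tested. Ccl27a did not pass without vismodegib array 1, Cxcl16 not without either vismodegib array, and Il1b not without any of the 4 Lgr5-positive or either untreated Lgr5-negative array. The counts were 5 higher for each list without vismodegib array 1, and without untreated array 2 they were 6 and 4. Without vismodegib array 2 and without untreated array 1 the interleukin list had 6 higher, and without untreated array 1 the chemokine list had 6 higher and 2 lower.

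Interferon-stimulated genes had 1 higher and 1 lower of 25 (median 0.29, 20 above 0), and MHC class I genes 3 higher and 0 lower of 14 (median 0.47, all 14 above 0). Nlrc5, the activator of class I genes, rose from 8.94 and 9.21 to 10.13 and 10.36 (1.17 ± 0.20), and Irf1, an interferon-induced factor, fell from 10.32 and 10.62 to 9.38 and 9.34 (−1.11 ± 0.14). Nlrc5 did not pass without vismodegib array 2. The class I list had 1 higher without vismodegib array 1, 0 without vismodegib array 2 and 2 without untreated array 1. The interferon list had 0 higher without either untreated array or vismodegib array 2.

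The response was set against that of the Lgr5-negative cells of the same mice, in which 1.26% of tested genes were higher and 2.06% lower. The difference of the effects passed for 202 genes (1.4%), of which 143 lay above 0 and 59 below. Genes past the threshold in both populations included 113 higher and 108 lower in both. Among them Krt77 had nearly the same change (4.55 ± 0.41 against 4.59 in Lgr5-negative cells), and Fras1 (−2.31 against −2.27) and Col4a1 (−1.80 against −1.76) also differed little, with no pass of the difference. Several genes of barrier and keratinocyte differentiation had a called difference above 0. Abca12 rose by 2.76 from a level under 4.85 in Lgr5-positive cells and stood at −0.45 in Lgr5-negative cells, a difference of 3.21 ± 0.24 (adjusted p = 0.00951 by limma). Krt10 differed by 1.46 ± 0.19, Sox21 by 2.78 ± 0.40, Ehf by 2.10 ± 0.35, Aqp3 by 3.09 ± 0.49 and Elovl4, which fell in Lgr5-negative cells (−1.13), by 2.12 ± 0.25. Of the 31 differentiation factors, whose Lgr5-negative median was 0.04, 0 passed in Lgr5-negative cells, and only Ehf passed the test of the difference, as did 1 of 12 suprabasal keratins and 1 of 15 upper follicle genes. Robo1 rose here and fell in Lgr5-negative cells (2.19 against −1.13, difference 3.32 ± 0.30). On the other side Cldn10 (−2.47 ± 0.24), Tbx1 (−2.39 ± 0.40), Sox13 (−2.14 ± 0.31), Efemp1 (−1.93 ± 0.19) and Lamb1 (−1.46 ± 0.25) had differences below 0. Efemp1 lay under 4.85 in every Lgr5-negative array and both treated Lgr5-positive ones, as did Cldn10 in the latter. Of the macrophage markers, 8 of 23 had a called difference, all above 0. The counts depended on single arrays. The difference passed for 2 genes when vismodegib Lgr5-positive array 1 was left out, for 79 without array 2 of those cells, for 8 and 66 without untreated Lgr5-negative array 2 and 1, and for 109 without vismodegib Lgr5-negative array 2.

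**Figure D5:**
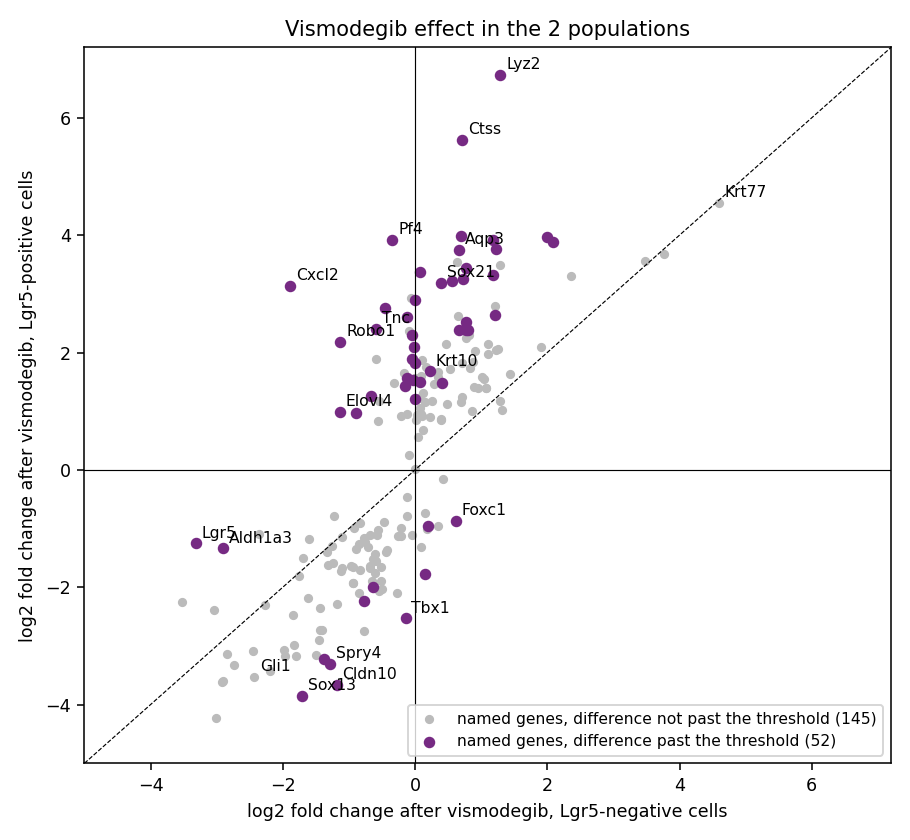
Log2 fold change after vismodegib in Lgr5-negative (horizontal) and Lgr5-positive (vertical) cells for the genes named in the text, with the line of equal effects dashed. Purple points are the genes whose difference passed the threshold; Lyz2, Aqp3 and Sox21 lie above the line, Krt77 on it and Tbx1, Sox13 and Cldn10 below it.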

How the data were processed

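The authors deposited log2 signals, computed with RMA per the submitters' processing notes (no version stated), from amplified cDNA of sorted cells on an Affymetrix mouse array. They were used as deposited. RMA sets all arrays to 1 distribution, so a shift of total RNA cannot be seen, and precision is limited by how few arrays there are.

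Of 45141 probe sets, 28898 had 1 gene symbol, 551 several, 15588 none and 104 were controls. The brightest probe set by its 8-array mean stood for each of 17097 genes, 7180 of which had several. Genes above 4.85 (the 25th percentile) in at least 2 arrays were tested (14403), and 2694 were not. limma 3.58.1 in R 4.3.3 fitted the 4 group means over 8 arrays (lmFit, eBayes, two-sided, 4 residual and 3.53 prior degrees of freedom), with Benjamini-Hochberg adjustment over all tested genes and a threshold of 0.05. On simulated data the fit recovered 81% of 2-fold and 99% of 4-fold changes in the vismodegib effect in Lgr5-positive cells, with 100 changed genes of each size among 14403 and 9 false calls. The simulated noise was normal and independent between arrays, with the moderated spread of each gene and no effect of mouse. These shares check the fit and do not give its power or error rate in the real arrays.

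The members and lists were chosen with earlier results of these data known. Named genes are Lgr5, Lrig1, Ptch1, Gli1, the 25 largest increases and 25 largest decreases past the threshold whose groups do not overlap, and of each list up to 6 called members with the largest change and the 2 brightest. The text names 197 genes with values, 4 of them outside this rule (Col4a3, Col4a5, Col4a6 and Scnn1g). Alternatives were another filter or none, the mean of probe sets, cyclic loess, an intensity trend, array weights, a fold of at least 1.5, only the 4 arrays, mouse number or mouse as a block, and leaving out each array. Promoter windows and gene order came from RefSeq tables, in which 16936 of the 17097 genes matched by gene ID.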

Additional observations from a re-analysis of the deposited data

Results flagged for a closer look

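For 52 of the 197 named genes the vismodegib effect in Lgr5-positive cells differed from that in Lgr5-negative cells by the interaction contrast in limma (adjusted p under 0.05). Values are the Lgr5-positive minus the Lgr5-negative log2 fold change, 42 above 0 and 10 below.

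Among macrophage, chemokine and related genes the differences were 5.44 for Lyz2, 4.91 for Ctss, 3.28 for Tyrobp, 1.97 for C1qb, 4.26 for Pf4, 3.29 for Ccl6, 5.03 for Cxcl2 (which fell in Lgr5-negative cells, −1.89), 2.90 for Il1rn, 1.68 for Il6ra, 1.79 for Hpgds and 2.53 for Vim. The mean macrophage marker level stood at 5.94 and 5.63 in untreated and 8.50 and 8.16 in treated Lgr5-positive arrays, and its part in these differences was not tested. Lyz2 is read by a probe set of the x_at type, whose probes can match related transcripts.

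Genes of differentiation, upper follicle and barrier had differences of 2.78 for Sox21, 2.10 for Ehf, 1.58 for Meis2, 2.15 for Sox7, 1.46 for Krt10, 3.09 for Aqp3, 2.67 for Defb1, 1.92 for Calm4, 3.21 for Abca12, 1.82 for Elovl7, 2.12 for Elovl4, 1.74 for Klk11, 2.73 for Tmprss4 and 2.54 for Clca3a1. The retinoid and aldehyde dehydrogenase genes Adh7 (2.67), Aldh3a1 (1.70) and Aldh1a3 (1.57) were above 0 too. Aldh1a3 fell in both populations, by more in the Lgr5-negative cells (−2.91). Lgr5, on which the cells were sorted, likewise fell in both and less in Lgr5-positive cells (2.06).

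Growth, energy and stress genes had differences of 1.07 for Heatr1, 1.21 for Odc1, 1.42 for Pfkl, 1.59 for Hif1a, 1.92 for the lactate carrier Slc16a1, 2.73 for Slc16a14, 2.34 for Srxn1 and 1.56 for Gsr. Matrix, contact and guidance genes had 2.99 for Tnc, 1.87 for Mmp2, 1.62 for Lmo7, 3.32 for Robo1 and 1.42 for Tnfrsf19.

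Below 0 were the follicle factors Sox13 (−2.14), Tbx1 (−2.39) and Foxc1 (−1.49), the matrix genes Lamb1 (−1.46) and Efemp1 (−1.93), Cldn10 (−2.47), Spry4 (−2.03), Jun (−1.16), Cntfr (−1.83) and Fads1 (−1.35). The effects had opposite signs in the 2 populations for 18 of the genes above 0 and for 3 below (Foxc1, Efemp1 and Jun), including values close to 0. Abca12, Pf4 and Lyz2 in untreated and Cldn10 and Efemp1 in treated Lgr5-positive arrays lay under 4.85, so the sizes of their differences are uncertain.

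The calls rest on 2 mice a group. Without vismodegib Lgr5-positive array 1 the difference passed for 2 of all tested genes, without untreated Lgr5-negative array 2 for 8, without untreated Lgr5-negative array 1 for 66, without vismodegib Lgr5-positive array 2 for 79 and without vismodegib Lgr5-negative array 2 for 109. Dixon's outlier criterion could not be used, since no group has more than 2 arrays.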

How the results depend on the processing

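Of the 194 named calls none changed direction under any alternative. Leaving out 1 array could not turn a direction, since all 1566 called genes had groups that do not overlap. Of the other alternatives, only the mean of probe sets and cyclic loess change the values, so only these could have turned one. Requiring a fold of at least 1.5 left 327 genes for the vismodegib effect in Lgr5-positive cells and 14 for the difference between populations, in place of 1566 and 202, and ended 86 of the named calls. Leaving out 1 array gave between 543 and 1823 genes for the effect and between 2 and 251 for the difference, and ended between 2 and 66 of the named calls. With only the 4 Lgr5-positive arrays 1073 genes passed and 22 named calls ended. With no filter 1477 passed, and Dmkn, Egln3, Elovl6, Lss, Msmo1, Il1b and Bcl2 did not. The mean of probe sets ended Elovl1 and Col4a5, cyclic loess (792 higher and 733 lower) ended Dmkn, and array weights and the filter at the median each ended Klf6. Mice of the same number in different treatments are different animals, so the numbers do not pair the drug groups. In Lgr5-positive cells their deviations from the group means had a correlation of 0.00964. With 2 arrays a group this compares a single array difference of each group, so it cannot show that arrays of 1 number share nothing. With the mouse number as a replicate block, 1470 genes passed for the effect and 148 for the difference, and Klf6, Dmkn, Klk8 and Bcl2 ended. The 2 populations of a mouse do share an animal, and with the mouse as a random block (correlation 0.0823) the counts were 1593 and 292, with no named call of the effect ended. The cause of these changes was not tested. A gene not above 4.85 has only a bound on its level.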

Other observations

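Inner root sheath and hair shaft genes had 2 higher and 0 lower of 23 tested (median −0.12). YAP and TEAD targets, which report mechanical and contact signals, had 2 higher and 2 lower of 24 (median −0.09). Circadian clock genes had 2 higher and 0 lower of 17 (median −0.21), and prostaglandin and arachidonate genes 2 and 0 of 21 (median 0.18). The shares over all tested genes were 6.37% higher and 4.51% lower.

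Promoter windows of 300 bases were searched for 12 motifs on both strands, for the 719 higher and 497 lower genes with a window in the RefSeq table. The AP-1 letters TGANTCA were in 10.4% of the windows of higher genes, 6.44% of those of lower genes, 7.01% of those of the 11428 tested genes and 7.81% of all windows. The ETS letters ACCGGAAGT were in 0.556%, 0.604%, 2.03% and 1.1%, and the KLF letters GGGTGTGG in 6.26%, 5.03%, 4.73% and 3.56%. The GLI letters GACCACCCA were in 0.139%, 0.604%, 0.219% and 0.253%, which is 1 higher and 3 lower genes. The E-box CACGTG was in 12.4% of higher, 12.3% of lower and 11% of tested genes, and it overlaps the hypoxia element ACGTGC, which was in 10.2%, 10.3% and 9%. The cyclic AMP element TGACGTCA was in 3.2%, 3.82% and 3.19%, the TCF letters CTTTGAT in 3.62%, 2.82% and 3.42%, and the antioxidant element TGANNNNGC in 48%, 44.3% and 47.9%. The grainyhead letters AACCGGTT, the serum response element and the p63 half-site pair were in under 1% of each group. These shares are descriptions of letters in a fixed window, not of binding, and no test was made.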
